A study of Mus musculus with 16 samples.

Results

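Messenger RNA of 8 genes at the head of insulin and insulin-like growth factor (IGF) signalling was followed in the cortex of 5xFAD mice fed rapamycin. The genes were the receptors Insr and Igf1r, the receptor substrates Irs1 and Irs2, the adaptor Grb10, the kinase Akt1 and the transcription factors Foxo1 and Foxo3. They were chosen by name, with earlier results of these data already known. All 8 are among the 47593 genes counted and among the 16553 genes with enough read pairs to be tested. Rapamycin inhibits the kinase complex mTORC1, and the comparison asks how its diet left the transcripts of the pathway that feeds into that complex. The only large difference was in Irs1, whose mRNA was lower with rapamycin, to 0.525 of the vehicle level with both sexes together. Its adjusted p was under 0.05 in that fit and in neither sex alone. It was also not under 0.05 without a batch term, or with the exon length slope or mitochondrial share of the libraries, described below, as a covariate.

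The mice were heterozygous 5xFAD animals on a C57BL/6-SJL hybrid background, a transgenic line whose transgenes are expressed in neurons from the Thy1 promoter and which forms amyloid plaques. They received chow with rapamycin or chow with the vehicle alone from 2 months of age, and brain tissue was taken at 5 months. Each sex and diet gave 4 libraries, 16 in all, named here by sex, diet and number, and all carried the transgenes, so there was no group without amyloid. The study's text speaks of pooled cortical samples, while the legend of its RNA-seq figure gives 4 mice per group, as many as the labelled libraries. Whether a library holds 1 mouse was therefore not certain, and p-values measure the spread between these libraries.

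In this pathway, insulin binds the receptor Insr and IGF-1 mainly Igf1r, and both receptors phosphorylate the docking proteins Irs1 and Irs2, which recruit PI3-kinase. PI3-kinase leads to activation of Akt, which phosphorylates Foxo proteins and holds them out of the nucleus, and Akt also releases mTORC1 from inhibition. Active mTORC1 and its target S6 kinase dampen the pathway from within by phosphorylating Irs proteins and by stabilising Grb10, an adaptor that binds the receptors and inhibits them, while nuclear Foxo proteins are known to raise transcription of Insr and Irs2. These feedback steps act largely on proteins, and mRNA levels do not measure them.

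The start regions of the substrate genes are shown first, since Irs1 carries the main result and Irs2 is its closest partner. The RefSeq table of the same build, GRCm38.p6, held a window of 250 bases before and 50 bases after the start for 7 of the 8 genes, 9 windows in all. Irs4, a further member of the substrate family that was close to absent here, is printed beside them. The 250 bases before each start are given 5′ to 3′ on the gene's own strand, at chr1:82291440-82291689 for Irs1, chr8:11008930-11009179 for Irs2 and chrX:141725218-141725467 for Irs4, all on the minus strand. Capitals mark the E-box CACGTG, the core letters to which basic helix-loop-helix factors such as TFE3 and USF bind, and TGTTTTG, the core of the insulin response sequence described for Foxo proteins, with overlapping letters joined.

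Irs1: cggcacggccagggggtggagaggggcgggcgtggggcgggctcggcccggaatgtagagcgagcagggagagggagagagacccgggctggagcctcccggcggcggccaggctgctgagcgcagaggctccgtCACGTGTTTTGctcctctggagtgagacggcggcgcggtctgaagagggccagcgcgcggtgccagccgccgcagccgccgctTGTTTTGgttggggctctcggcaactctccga

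Irs2: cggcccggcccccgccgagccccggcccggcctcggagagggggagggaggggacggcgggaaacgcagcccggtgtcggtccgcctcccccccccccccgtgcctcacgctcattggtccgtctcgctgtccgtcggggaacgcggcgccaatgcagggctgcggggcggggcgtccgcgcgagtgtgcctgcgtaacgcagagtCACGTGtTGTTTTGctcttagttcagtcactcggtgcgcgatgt

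Irs4: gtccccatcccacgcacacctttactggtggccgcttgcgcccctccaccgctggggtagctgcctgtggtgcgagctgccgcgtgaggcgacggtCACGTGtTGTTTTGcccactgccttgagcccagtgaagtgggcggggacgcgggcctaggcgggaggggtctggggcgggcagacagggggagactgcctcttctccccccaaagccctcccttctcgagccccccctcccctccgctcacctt

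In Irs1 the E-box began at position −115 from the start and shared its last letters with a TGTTTTG that began at −111. A further TGTTTTG stood at −32 of Irs1. In Irs2 the E-box began at −44 and TGTTTTG at −37, and in Irs4 they began at −154 and −147. The core thus began 4 bases after the first letter of the E-box in Irs1 and 7 bases after it in Irs2 and Irs4. Positions count from the RefSeq starts. In the annotation used for counting, the 5′ end of Irs2 is at 11008458, outside its RefSeq window, so its distances depend on the start chosen. That of Irs1, at 82291416, lies inside its window. Searched on both strands, CACGTG occurred in 7.15% and TGTTTTG in 6.283% of all 32851 windows, and both occurred in 0.408%. Both began within 10 bases of each other in 9 windows, of 8 gene symbols: Irs1, Irs2, Irs4, Klf11, Pcbp1, Pyroxd1, 1700019P21Rik and Gm38926. This arrangement was noticed in the printed sequences and then counted, so it is a description of letters and was not tested. The Foxo site TGTTTAC, found in 3.65% of windows, occurred in 1 window of the 8 genes, at −161 of Akt1, and the cyclic AMP response element TGACGTCA, in 1.79% of windows, occurred in none of the 9. The Irs1 and Irs2 stretches were rich in G and C, 72.4% and 72.8% against a median of 52.4% over all windows.

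The libraries held 16393501 to 20593089 counted read pairs. Batch 1 had 11 libraries and batch 2 had 5, and the library labelled male rapamycin 4, of batch 2, held 9935 Xist counts and 0 counts on 4 Y-linked genes, against its label. It is listed under its label in the values of male rapamycin 1 to 4, and the main results are also given without it. Female rapamycin 1 and 2 and male rapamycin 2 stood apart from the rest by the 3 highest mitochondrial shares, 6.88% to 6.99% of read pairs, and by the 3 lowest exon length slopes, −0.13 to −0.12, where the slope says how strongly long transcripts are represented in a library, in log2 CPM per log2 exon length. Male vehicle 4 had the highest summed level of 6 choroid plexus markers, 1877 CPM (counts scaled to a common library total), against a vehicle median of 142.6 CPM and a rapamycin range of 22.8 to 182.2 CPM.

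Per length, the order of the 8 genes was set by Akt1 at the top and Irs1 at the bottom. Mean levels over the 16 libraries, in CPM per kilobase of exon, were 44.5 ± 3.85 (SD) for Akt1, 14.4 ± 2.51 for Foxo3 and 12.5 ± 2.94 for Irs2. Then came Igf1r at 4.73 ± 1.21, Grb10 at 4.59 ± 0.612 and Insr at 3.98 ± 0.820 CPM per kilobase. Foxo1 stood at 2.92 ± 0.648 and Irs1 at 1.12 ± 0.473 CPM per kilobase, so Irs2 was the more abundant substrate transcript. Akt1, Irs2 and Foxo1 were above the next gene in the order in 16 of 16 libraries. Foxo3 was above Irs2, Grb10 above Insr and Insr above Foxo1 in 13 of 16, and Igf1r above Grb10 in only 6 of 16, so the last pair did not differ beyond its spread. Akt1 lay at the 92.7th percentile of tested genes by mean CPM per kilobase and Irs1 at the 24th percentile. The per-length level of Irs1 is understated by the counting, since 2822 of its 9144 exon bases (30.862%) also lie in exons of Gm9747 on the opposite strand, and pairs that touch both genes were counted for neither. Gm9747 had 0 counts in every library, and over the unshared 6322 bases the level of Irs1 was 1.61 CPM per kilobase, still the lowest of the 8. The shared bases were 7.778% for Foxo1 and 2.562% for Irs2, and 0 for the other 5 genes.

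**Figure D1:**
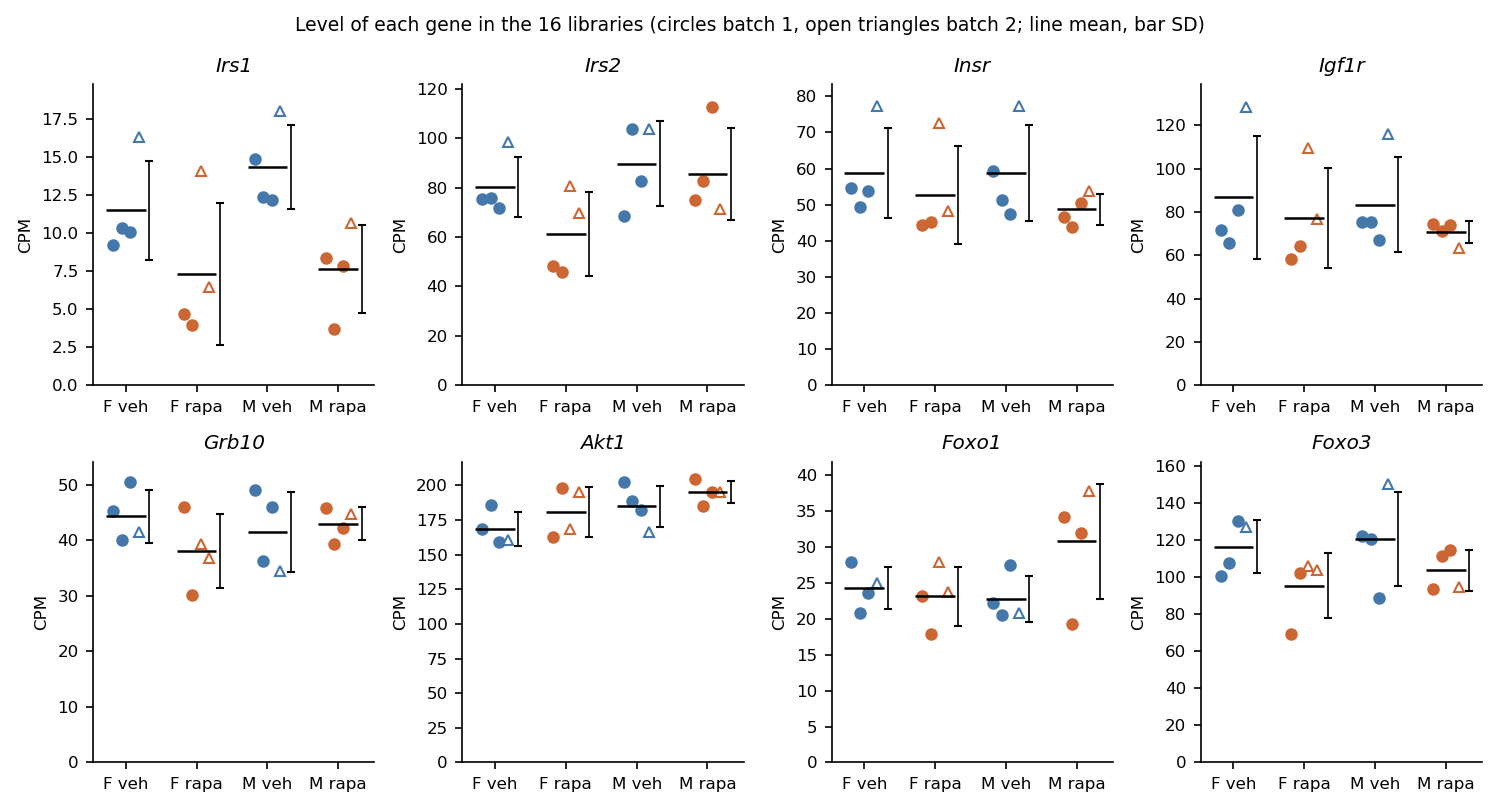
Level in CPM of each of the 8 genes (vertical axes, each from 0) in the 16 libraries by group (F female, M male, veh vehicle, rapa rapamycin). Filled circles are batch 1, open triangles batch 2, lines the group mean and bars the SD over 4 libraries. The male groups of Irs1 do not overlap, and most other groups do.

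Irs1 was the member with the largest difference. Irs1 encodes a docking protein that couples the insulin and IGF-1 receptors to PI3-kinase, and the gene lies at chr1:82233101-82291416 (GRCm38) on the minus strand. Its level was 9.23, 10.4, 10.1 and 16.4 CPM in female vehicle 1 to 4. In the female rapamycin libraries 1, 2, 4 and 5 it was 4.69, 3.97, 14.1 and 6.48 CPM. Female rapamycin 4, of batch 2, lay in the female vehicle range, and the other 3 lay below every female vehicle library. Male vehicle 1 to 4 had 14.9, 12.4, 12.2 and 18.1 CPM, and male rapamycin 1 to 4 had 8.35, 3.68, 7.84 and 10.7 CPM. The last of these, with a female pattern of sex-linked genes, also lay in the female vehicle range. As labelled, the male groups did not overlap, nor did vehicle and rapamycin within batch 1 or within batch 2, whereas over all 16 libraries they overlapped through female rapamycin 4 and the library labelled male rapamycin 4. Genes with male groups that do not overlap made up 6.13% of all genes tested, and those apart within batch 1 made up 4.59% and within batch 2 made up 26.2%.

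With both sexes, Irs1 fell by 0.93 on the log2 scale (SE 0.17, adjusted p = 0.01, edgeR quasi-likelihood test with sex and batch as terms, Benjamini-Hochberg over 16553 genes). A gene is called here when its adjusted p is under 0.05, and a differentially expressed gene (DEG) when its fold change is also at least 1.5. Of the 8 genes 2 were called, Irs1 and Insr, both lower with rapamycin, and 1 of them, Irs1, was a DEG. Over all genes tested 13.4% were called, 6.86% lower and 6.55% higher with rapamycin, and 2.14% were DEGs. The median log2 fold change of the 8 genes was −0.25 and that of all genes tested 0.02. The mean log2 CPM of Irs1 differed by −1.06 within batch 1 (6 vehicle and 5 rapamycin libraries) and by −0.79 within batch 2 (2 and 3 libraries).

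The size of the Irs1 difference depended on how 2 properties of the libraries were treated. Irs1 remained called when each of the 16 libraries was left out in turn, with log2 fold changes from −1.06 to −0.82, and it was −0.92 without the library labelled male rapamycin 4 (adjusted p = 0.0191, edgeR). With the exon length slope as a covariate it was −0.36 (adjusted p = 0.911), with the mitochondrial share as a covariate −0.64 (adjusted p = 0.690), and without the 3 libraries of highest mitochondrial share, a choice made after seeing the data, −0.66 (adjusted p = 0.136). In those 3 fits 0, 0 and 1 genes of all tested were called. The fit without a batch term gave −0.78 (adjusted p = 0.106), and the fit that removed the length trend from each library by offsets gave −0.79 (adjusted p = 0.0132).

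Within batch 1, Irs1 was lowest in the 3 libraries named above, at 3.68 to 4.69 CPM, and their slopes were the lowest too. Over the 11 libraries of batch 1 the log2 CPM of Irs1 and the slope had a Pearson r of 0.90 (permutation p = 0.00142, adjusted over the 8 genes 0.0114) and a Spearman rho of 0.80 (permutation p = 0.00459, adjusted 0.0367). The permutations mixed vehicle and rapamycin libraries, which differed in both Irs1 and slope. These p-values therefore carry the diet difference and do not measure a link within a diet. Without the 2 libraries farthest from the median slope, female rapamycin 2 and male rapamycin 2, r was 0.77 (n = 9). Female rapamycin 1, with a slope of −0.121, remained in that value and stood far from the rest. Among the 6 vehicle libraries of batch 1 alone r was −0.16, and no r is given for the 5 rapamycin libraries of that batch. In those 5, the 3 with the lowest slopes had 3.68 to 4.69 CPM, and male rapamycin 1 and 3, with slopes of −0.0107 and 0.0119, had 8.35 and 7.84 CPM, so the libraries with the lower slopes had the lower Irs1. Slopes of vehicle and rapamycin libraries differed in both batches, with means of 0.0264 against −0.0737 in batch 1 and 0.0974 against 0.00511 in batch 2. The mitochondrial share was 4.07% in vehicle and 5.94% in rapamycin libraries of batch 1 on average, and 3.03% and 4.34% in batch 2. Slopes ran from 0.0004 to 0.077 in vehicle and from −0.127 to 0.012 in rapamycin libraries of batch 1. In batch 2 they ran from 0.094 to 0.100 and from −0.033 to 0.064. Slope and share thus went with diet, and the covariate and offset fits given above cannot tell their part in the Irs1 difference from that of diet. That part was not tested in any other way.

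**Figure D2:**
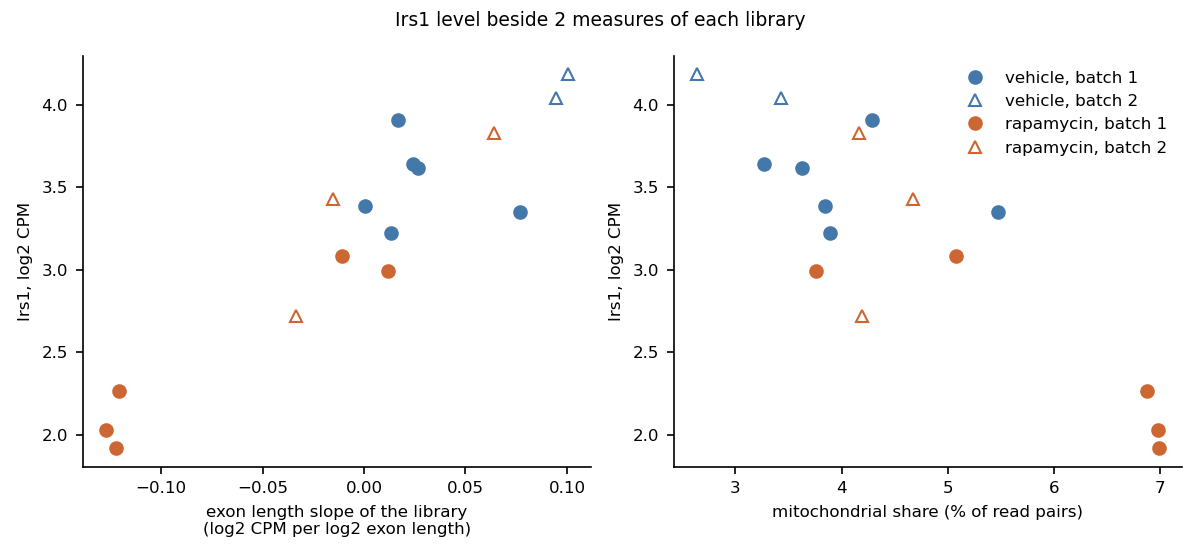
Log2 CPM of Irs1 (vertical axes) against the exon length slope of each library (left) and its mitochondrial share in percent of read pairs (right). Each point is 1 of 16 libraries, coloured by diet and shaped by batch; 3 rapamycin libraries of batch 1 sit apart at slopes near −0.12 and shares near 7%, with the lowest Irs1.

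Irs2, the other main substrate, is known as a Foxo target and lies at chr8:10984681-11008458 on the minus strand. It was measured at 75.6, 75.8, 72.0 and 98.5 CPM in female vehicle 1 to 4, and at 48.1, 45.7, 80.9 and 69.9 CPM in female rapamycin 1, 2, 4 and 5. In male vehicle 1 to 4 it was at 68.7, 103.7, 82.8 and 103.9 CPM, and in male rapamycin 1 to 4 at 75.1, 82.9, 112.7 and 71.6 CPM. Female rapamycin 1 and 2 were low and 1 male rapamycin library held the highest value of all, so the groups overlapped in both sexes. The log2 fold change was −0.26 (SE 0.13, adjusted p = 0.184, edgeR) for both sexes, −0.49 (SE 0.18, adjusted p = 0.113) for females and −0.05 (SE 0.17, adjusted p = 0.931) for males. The difference between these sexes was 0.44 (SE 0.25, unadjusted p = 0.0901, adjusted p = 0.999, edgeR).

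The substrates did not move by the same amount. The log2 ratio of Irs1 to Irs2 counts ran from −3.07 to −2.21 in vehicle libraries with a median of −2.80, and from −4.48 to −2.52 in rapamycin libraries with a median of −3.39. Within batches the ratio was lower with rapamycin by −0.71 on the log2 scale (exact permutation test within batches, two-sided, 4620 assignments, p = 0.00108, adjusted over 3 ratios 0.00325). This ratio was chosen after seeing the data. It was −0.57 (p = 0.0179, exact permutation test) without the 3 libraries of highest mitochondrial share. The log2 ratio of Foxo1 to Foxo3 differed by 0.42 (exact permutation p = 0.0799) and that of Insr to Igf1r by −0.02 (exact permutation p = 0.828), neither below 0.05.

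Both receptors were measured at slightly lower levels with rapamycin, and only Insr was called. Insr, the insulin receptor (chr8:3122061-3279617, minus strand), was at 54.7, 49.3, 53.8 and 77.3 CPM in female vehicle 1 to 4 and at 44.4, 45.2, 72.7 and 48.3 CPM in female rapamycin 1, 2, 4 and 5. In males it was at 59.3, 51.3, 47.3 and 77.4 CPM in vehicle 1 to 4, and at 46.6, 43.9, 50.4 and 53.8 CPM in rapamycin 1 to 4. The groups overlapped in both sexes and a library of batch 2 was the highest of each group. Insr fell by 0.26 on the log2 scale (SE 0.083, adjusted p = 0.0471, edgeR) with both sexes, and the call stood near its threshold: it was made in 3 of the 16 fits that left out 1 library, and the 16 fits gave adjusted p from 0.0113 to 0.104. Without the library labelled male rapamycin 4 it was −0.23 (adjusted p = 0.0801) and without male vehicle 4, the library rich in choroid plexus markers, −0.23 (adjusted p = 0.104). With exon length offsets it was −0.03 (adjusted p = 0.810).

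Igf1r, the receptor for IGF-1 (chr7:67952827-68233668, plus strand), was at 71.6, 65.8, 80.7 and 128.5 CPM in female vehicle 1 to 4 and at 58.4, 64.1, 109.7 and 76.8 CPM in female rapamycin 1, 2, 4 and 5. In male vehicle 1 to 4 it was at 75.2, 75.3, 67.2 and 115.8 CPM, and in male rapamycin 1 to 4 at 74.3, 71.0, 74.0 and 63.3 CPM. Vehicle and rapamycin overlapped in each sex, and the log2 fold change was −0.23 (SE 0.11, adjusted p = 0.152, edgeR). It turned to 0.025 with exon length offsets and to 0.023 with the slope as a covariate.

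Grb10, an imprinted adaptor that binds both receptors and is a substrate of mTORC1 (chr11:11930508-12038683, minus strand), was at 40.0 to 50.5 CPM in female vehicle, 30.1 to 46.0 CPM in female rapamycin, 34.5 to 49.1 CPM in male vehicle and 39.3 to 45.9 CPM in male rapamycin libraries. Its log2 fold change was −0.07 (SE 0.099, adjusted p = 0.701, edgeR), with the groups overlapping almost fully. Leaving out female rapamycin 2, its lowest library at 30.1 CPM, turned it to 0.010.

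Akt1, the kinase that passes the signal on to Foxo proteins and mTORC1 (chr12:112653821-112674884, minus strand), was the most even of the 8. It was at 168.8, 185.8, 159.3 and 160.3 CPM in female vehicle 1 to 4 and at 162.6, 198.1, 168.3 and 195.3 CPM in female rapamycin 1, 2, 4 and 5. In male vehicle 1 to 4 it was at 202.2, 188.9, 182.2 and 166.6 CPM, and in male rapamycin 1 to 4 at 204.4, 185.2, 195.6 and 195.2 CPM. The groups overlapped, and the log2 fold change was 0.10 (SE 0.067, adjusted p = 0.340, edgeR).

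The Foxo genes, whose proteins Akt holds out of the nucleus, had log2 fold changes of opposite sign and neither was called. Foxo3 (chr10:42181841-42276755, minus strand) was at 100.8, 107.8, 130.3 and 126.8 CPM in female vehicle 1 to 4 and at 69.4, 102.3, 106.0 and 104.0 CPM in female rapamycin 1, 2, 4 and 5. It was at 122.2, 120.7, 88.9 and 150.5 CPM in male vehicle 1 to 4 and at 93.6, 111.2, 114.9 and 95.0 CPM in male rapamycin 1 to 4. Female rapamycin 1 was the lowest of all 16 and male vehicle 4 the highest, with overlap in both sexes. The log2 fold change was −0.27 (SE 0.10, adjusted p = 0.0812, edgeR), and it was −0.24 (adjusted p = 0.135) without the library labelled male rapamycin 4.

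Foxo1 (chr3:52268336-52353221, plus strand) was at 28, 20.9, 23.6 and 25.0 CPM in female vehicle 1 to 4 and at 23.2, 17.8, 27.9 and 23.7 CPM in female rapamycin 1, 2, 4 and 5. In males it was at 22.2, 20.6, 27.6 and 20.8 CPM in vehicle 1 to 4 and at 34.3, 19.3, 31.9 and 37.8 CPM in rapamycin 1 to 4. The female groups lay over each other, whereas 3 of 4 male rapamycin libraries stood above every male vehicle library and male rapamycin 2 stood below them all. The log2 fold change was 0.16 (SE 0.14, adjusted p = 0.474) for both sexes, −0.12 (SE 0.18, adjusted p = 0.716) for females and 0.42 (SE 0.17, unadjusted p = 0.0250, adjusted p = 0.375) for males, all by edgeR. The difference between the sexes was 0.55 (SE 0.25, unadjusted p = 0.0394), the only one of the 8 below 0.05 before adjustment, and did not pass over all genes (adjusted p = 0.999, edgeR). Without the library labelled male rapamycin 4, which held the highest Foxo1 level, the difference between the sexes was 0.44 (unadjusted p = 0.115, edgeR). Male rapamycin 1, 3 and 4 also had summed hippocampus markers of 397.4, 402.7 and 435.4 CPM, against 128.8 CPM in male rapamycin 2. Male vehicle 3, the highest male vehicle library in Foxo1, had 364.4 CPM. Female rapamycin 1 had the highest sum, 568.4 CPM, with Foxo1 at only 23.2 CPM. The part of such tissue in the Foxo1 values was not tested.

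**Figure D3:**
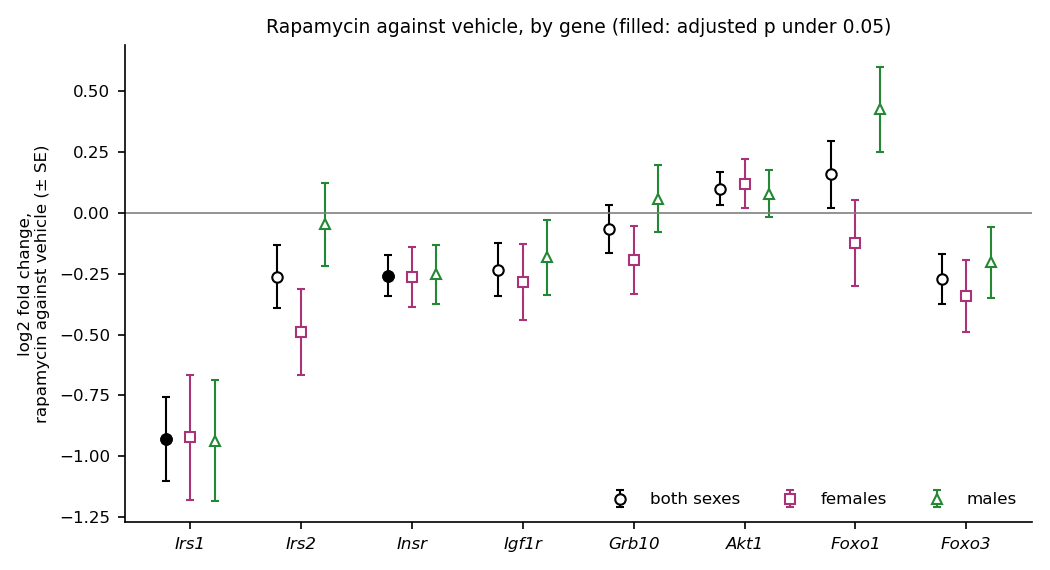
Log2 fold change of rapamycin against vehicle (vertical axis, bars the SE) for each of the 8 genes, in both sexes together (circles), females (squares) and males (triangles). Filled points have an adjusted p under 0.05; only Irs1 and Insr in both sexes together do, and Irs1 lies near −0.93 in all 3 fits.

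Within each sex, fewer libraries were compared and no member was called. Irs1 was at −0.92 in females (SE 0.26, unadjusted p = 0.00211, adjusted p = 0.0709, edgeR) and at −0.93 in males (SE 0.25, unadjusted p = 0.00142, adjusted p = 0.366), where 0.0121% and 0% of all genes were called. The difference between them was −0.01 (SE 0.36, adjusted p = 0.999, edgeR), and its SE leaves room for a sizeable difference either way. By unadjusted p under 0.05 there were 4 of 8 genes in females (Irs1, Irs2, Insr and Foxo3) and 2 of 8 in males (Irs1 and Foxo1). Over all genes 3806 of 16553 in females and 1976 in males had such a p. DESeq2 called 1 member in females, Irs1, where it called 9.08% of all genes, and 0 members in males, where it called 0.163%. Without the library labelled male rapamycin 4 the male values were −0.90 for Irs1 (adjusted p = 0.710, edgeR), 0.13 for Irs2 (adjusted p = 0.842), a turn in sign, and 0.34 for Foxo1 (adjusted p = 0.714). In the fit of both sexes without that library Irs2 was at −0.22, Igf1r at −0.17, Grb10 at −0.092, Akt1 at 0.096 and Foxo1 at 0.11, with 0 of these 5 called by edgeR. The differences between the sexes were then 0.03 for Irs1 (adjusted p = 0.999) and 0.67 for Irs2 (unadjusted p = 0.00598, adjusted p = 0.998, edgeR). The female result changed without female rapamycin 4: Irs1 was −1.22 (adjusted p = 0.00864, edgeR) and Irs2 −0.58 (adjusted p = 0.0411), and both were called, while 12.7% of all genes were called in that fit against 0.0121% with all libraries. The interaction of sex and treatment called 0% of all genes and 0 members by edgeR and by DESeq2, with 345 genes and 1 member under an unadjusted p of 0.05.

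Without rapamycin, the vehicle mice showed no called difference by sex in these genes. Male against female vehicle called 0% of all genes and 0 of the 8 by edgeR, with 571 genes and 0 members under an unadjusted p of 0.05, and DESeq2 called 9 genes and 0 of the 8. The largest value was that of Irs1, 0.35 higher in males on the log2 scale (SE 0.24, unadjusted p = 0.169, edgeR).

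By batch 3 of the 8 genes were called, near the share among all genes, 35.4%. Irs1 rose by 0.81 (SE 0.18, adjusted p = 0.00264), Igf1r by 0.50 (SE 0.12, adjusted p = 0.00301) and Insr by 0.44 (SE 0.089, adjusted p = 0.00122) on the log2 scale in batch 2 against batch 1 (edgeR). Batch 2 held 2 vehicle and 3 rapamycin libraries and batch 1 held 6 and 5, so the batch term entered each fit of rapamycin. Exon lengths were 16791 bases for Igf1r, 13746 for Insr, 9144 for Irs1, 9089 for Grb10, 8665 for Foxo1, 7571 for Foxo3, 6323 for Irs2 and 4098 for Akt1. The part of exon length in the batch differences was not tested.

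Other genes with the most similar course over the 16 libraries, after removal of the batch means, were taken from 14689 genes with a mean of at least 1 CPM. For Irs1 these were Ppargc1b (Pearson r 0.96), a coactivator of genes for mitochondrial metabolism, and Kcnma1 (0.96), a calcium-activated potassium channel. They were Etv5 (0.89) and Clstn3 (0.89) for Irs2, Eif4g3 (0.95) and Unc80 (0.94) for Insr, and Bsn (0.93) and Kmt2a (0.92) for Igf1r. They were Cadm1 (0.89) and Sc5d (0.84) for Grb10, Cdk16 (0.90) and Map1lc3b (0.90) for Akt1, Vwc2l (0.93) and Meis2 (0.92) for Foxo1, and Pde8b (0.95) and Kcnq5 (0.91) for Foxo3. Among the 8 themselves the closest pair was Insr and Igf1r (r 0.83), followed by Irs1 and Insr (0.76), and Foxo1 and Foxo3 ran apart (−0.39). These values share libraries, depth and diet, and describe likeness only. The exon length slope and mitochondrial share were not removed from them. Over the 16 libraries, batch means kept, log2 CPM had a Pearson r with the slope from −0.40 for Akt1 to 0.92 for Irs1. The part of the slope in the likeness was not tested.

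The remaining genes of the pathway were listed by role, 84 in all, of which 80 were tested. With both sexes 15 of 80 were called, 3 higher and 12 lower with rapamycin, with a median log2 fold change of 0.04, which is 18.8% against 13.4% of all genes. None was called in females, in males or in the interaction by edgeR. The 20, 10 and 3 of 80 with an unadjusted p under 0.05 there are 25.0%, 12.5% and 3.75%, beside 23.0%, 11.9% and 2.08% of all genes. The 15 calls also depended on the fit: 24 were made by DESeq2, which called 18.9% of all genes. None was made with exon length offsets, with either covariate, without a batch term or without the 3 libraries of highest mitochondrial share. Leaving out 1 library gave 2 to 20, while 4.29% to 20.1% of all genes were called.

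Of the ligands and binding proteins 0 of 8 tested were called by edgeR, with 2 under an unadjusted p of 0.05. Ins1, an insulin gene of the pancreas, had no count in any library and Ins2 at most 10, and neither was tested. Igfbp6, an IGF binding protein and the highest of this list per length, was at 41.0 ± 11.2 CPM in vehicle and 49.3 ± 16.4 CPM in rapamycin libraries (SD, n = 8 each; log2 fold change 0.29, adjusted p = 0.334).

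Of 16 other receptors and adaptors 3 were called lower and 0 higher, beside 6.86% and 6.55% of all genes. Igf2r, the receptor that clears IGF-2 and carries lysosomal enzymes, fell by 0.38 on the log2 scale (SE 0.10, adjusted p = 0.0228, edgeR), from 44.4 ± 10.6 to 34.8 ± 5.72 CPM. Sos1 and Sos2, the exchange factors that link receptors to Ras, fell by 0.25 (adjusted p = 0.0445) and by 0.32 (adjusted p = 0.0381). Grb2, the adaptor that holds Sos, was the highest of the list per length, at 168.8 ± 16.1 CPM in vehicle and 176.1 ± 22.2 CPM in rapamycin libraries (adjusted p = 0.321). Irs4 had at most 31 counts in a library (0.85 ± 0.55 CPM in vehicle and 0.85 ± 0.41 CPM in rapamycin, adjusted p = 0.893).

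Of 7 genes for PI3-kinase and PDK1 3 were called lower, beside 6.86% of all genes. Pik3ca and Pik3cb encode catalytic subunits and fell by 0.24 (adjusted p = 0.0494, edgeR) and by 0.34 (adjusted p = 0.0290) on the log2 scale. Pdpk1, the kinase PDK1 that phosphorylates Akt, fell by 0.31 (SE 0.088, adjusted p = 0.0285), from 165.8 ± 16.1 to 133.8 ± 18.3 CPM. With the exon length slope as a covariate Pdpk1 turned to 0.014, and none of these calls stood with length offsets or either covariate. Pik3r2, a regulatory subunit and the highest of the list per length, was at 173.2 ± 10.3 CPM in vehicle and 179.8 ± 11.5 CPM in rapamycin libraries (adjusted p = 0.568).

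Among 9 Akt paralogues and substrates 1 gene was called higher and 1 lower, beside 6.55% and 6.86% of all genes. Gsk3b, a kinase that Akt inhibits, fell by 0.42 (SE 0.11, adjusted p = 0.0226, edgeR), from 240.7 ± 40.9 to 178.7 ± 29.4 CPM, and Bad, a pro-apoptotic protein that Akt inhibits, rose by 0.34 (SE 0.11, adjusted p = 0.0402), from 19.3 ± 2.73 to 23.9 ± 4.64 CPM. Gsk3a, the paralogue of Gsk3b and the highest of the list per length, differed by 0.04 (adjusted p = 0.699).

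Of 14 brakes on the pathway 3 were called lower, beside 6.86% of all genes. They were Inpp5d, a lipid phosphatase of blood cells and microglia that fell by 0.37 (adjusted p = 0.0256, edgeR), Phlpp2, a phosphatase that removes a phosphate from Akt and fell by 0.40 (SE 0.088, adjusted p = 0.0138), and Enpp1, a membrane enzyme known to inhibit the insulin receptor, which fell by 0.49 (adjusted p = 0.0483). The summed level of 6 microglial markers ran from 401.3 to 713.9 CPM in vehicle and from 281.4 to 567.2 CPM in rapamycin libraries, with 0 of 6 called. Its part in the Inpp5d difference was not tested, and in such bulk tissue fewer cells of a type and less RNA per cell cannot be told apart. Inpp4a, a phosphatase of phosphoinositides and the highest of the list per length, differed by −0.20 (adjusted p = 0.100).

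Of 10 genes for Foxo paralogues, for 14-3-3 proteins, which hold phosphorylated Foxo in the cytoplasm, and for the deacetylase Sirt1, 0 were called by edgeR and 0 had an unadjusted p under 0.05. Ywhah was the highest of them per length, at 1003 ± 146.1 CPM in vehicle and 1023 ± 251.9 CPM in rapamycin libraries (adjusted p = 0.572).

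Of 16 genes listed as Foxo targets 2 were called higher and 2 lower, beside 6.55% and 6.86% of all genes, with a median of 0.18. Klf15, a transcription factor also induced by glucocorticoids, rose by 0.48 (SE 0.13, adjusted p = 0.0225, edgeR), from 23.0 ± 4.75 to 32.0 ± 5.79 CPM, and Txnip, an inhibitor of thioredoxin and of glucose uptake, rose by 0.33 (SE 0.10, adjusted p = 0.0379). Fbxo32, a ubiquitin ligase of muscle wasting, fell by 0.55 (SE 0.14, adjusted p = 0.0207), from 20.6 ± 3.58 to 14.6 ± 4.45 CPM, and Bcl6, a transcriptional repressor, fell by 0.31 (SE 0.094, adjusted p = 0.0368). Sod2, the mitochondrial superoxide dismutase and the highest of the list per length, differed by −0.24 (adjusted p = 0.0674). Of the 16, 11 lay above 0 and 5 below it, and 9 had an unadjusted p under 0.05 (edgeR), beside 30.3% of all genes. Most listed targets thus lay above 0, but they did not all move in 1 direction.

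**Figure D4:**
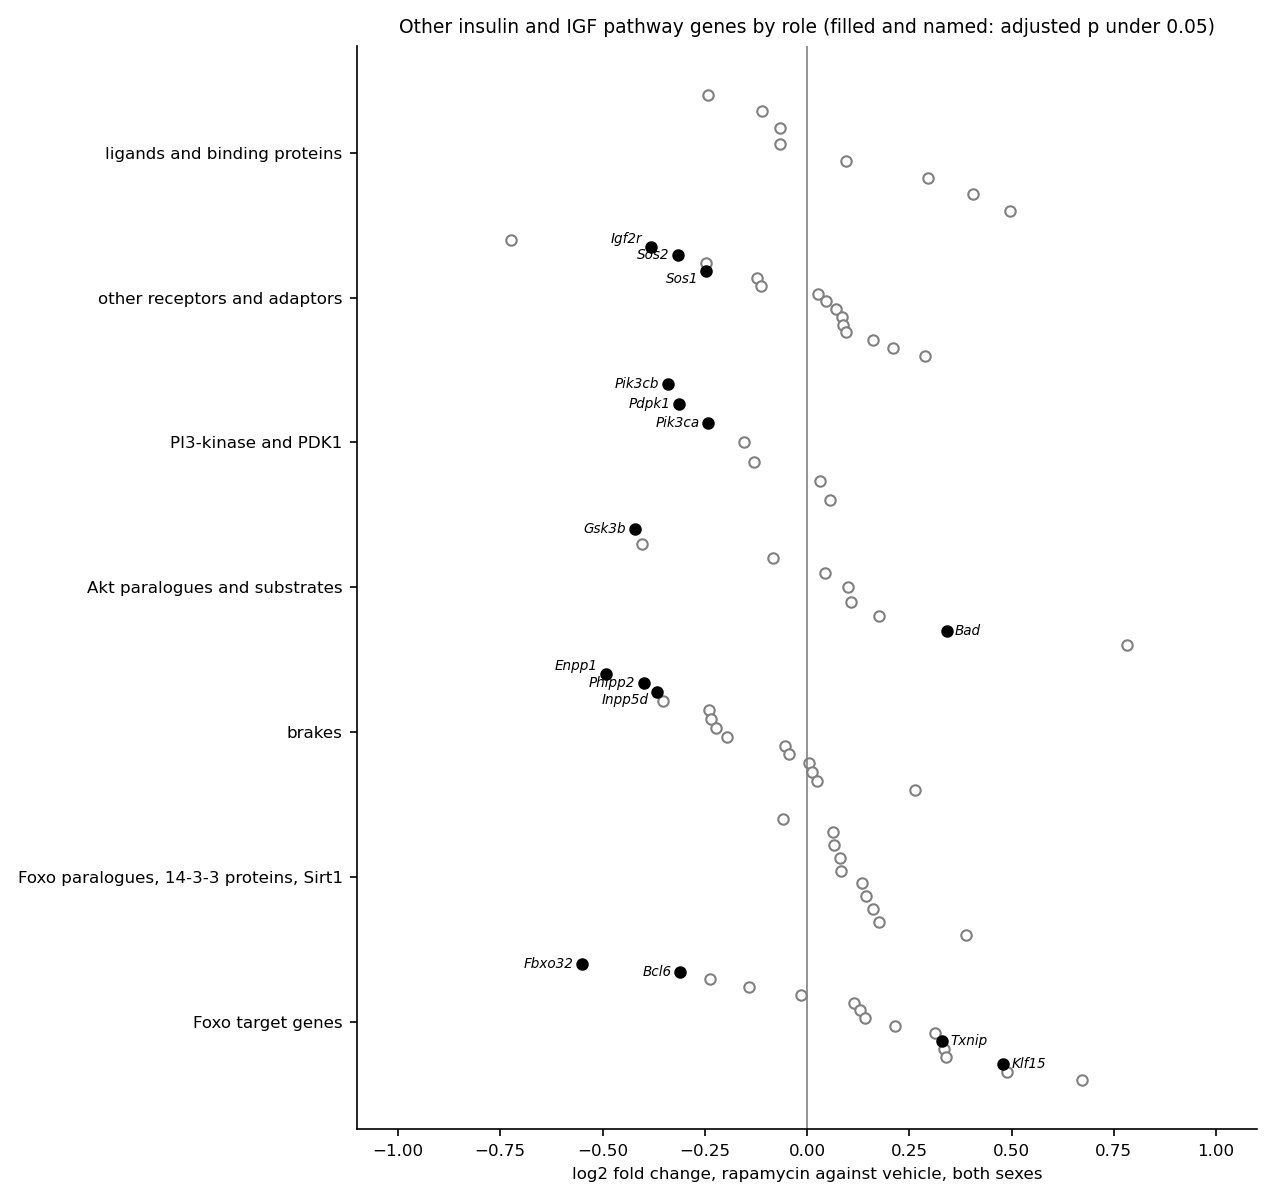
Log2 fold change of rapamycin against vehicle in both sexes together (horizontal axis) for the 80 tested genes of the 7 other lists of the pathway (rows), 1 point a gene. Filled, named points have an adjusted p under 0.05: 12 lie below 0 and 3 above it.

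**Figure D5:**
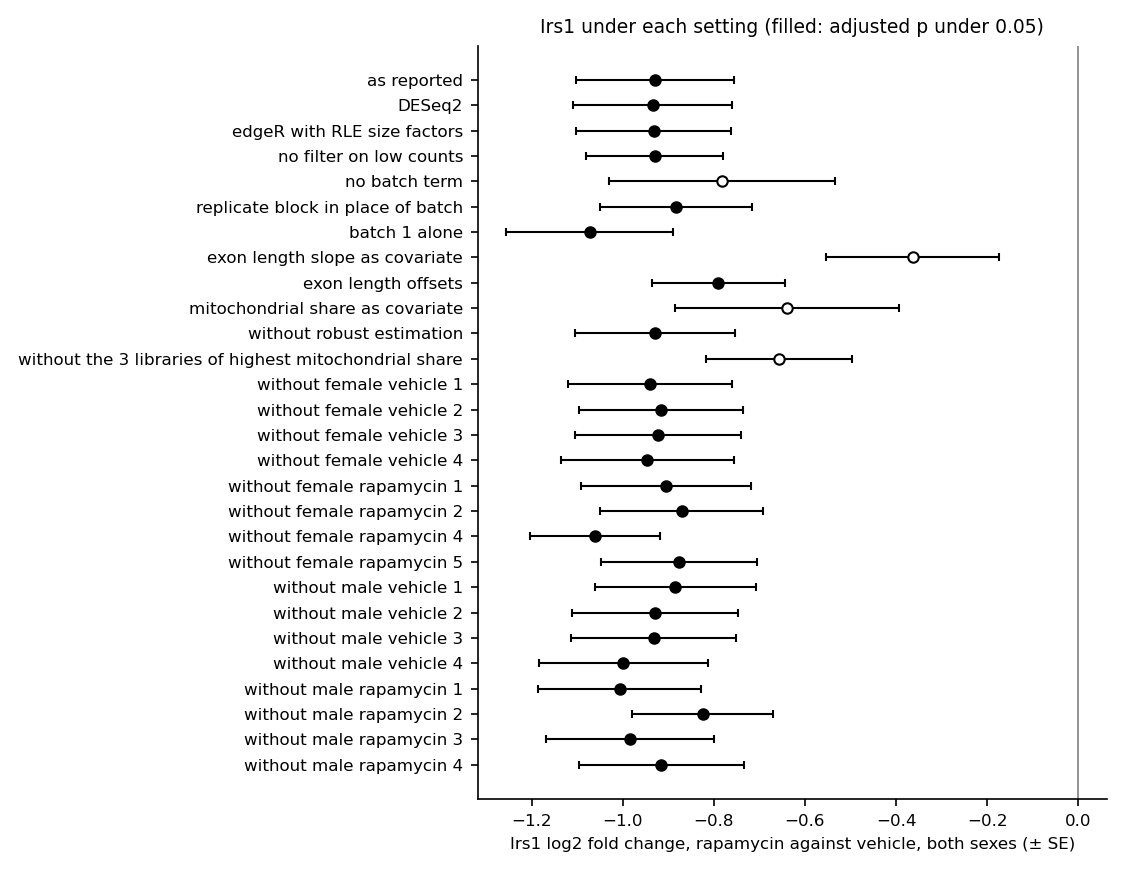
Log2 fold change of Irs1, rapamycin against vehicle in both sexes (horizontal axis, bars the SE), as reported and under each alternative (rows). Filled points have an adjusted p under 0.05; the 4 open points are the fits without a batch term, with the slope or the mitochondrial share as a covariate, and without the 3 libraries of highest mitochondrial share.

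All 27 alternative fits shown in the plot of Irs1 by setting gave a lower Irs1 with rapamycin, and 4 of them did not call it. Of the cell type markers beside Irs1, choroid plexus had 2 of 6 called lower (median log2 fold change −1.62), astrocytes 1 of 6 called higher (0.26), and glutamatergic neurons and endothelium 1 of 6 each called lower (−0.05 and −0.02). Over all genes 6.86% were called lower and 6.55% higher. The choroid plexus sum was 1877 CPM in male vehicle 4 alone, against a vehicle median of 142.6 CPM. Blood markers had 0 of 5 called, with all 5 above 0 (median 0.72), microglia 0 of 6 with 5 below 0 (−0.19), and oligodendrocytes 0 of 6 with 5 above 0 (0.17). The summed glutamatergic neuron markers ran from 4336 to 6090 CPM in vehicle and from 4050 to 5626 CPM in rapamycin libraries. Those of oligodendrocytes ran from 3650 to 5911 CPM and from 3632 to 9465 CPM, highest in female rapamycin 2, and those of hippocampus from 111.7 to 364.4 CPM and from 115.8 to 568.4 CPM, highest in female rapamycin 1. Both of these libraries were among the 3 with the lowest Irs1. The other of the 3, male rapamycin 2, had 6516 CPM of oligodendrocyte and 128.8 CPM of hippocampus markers. Female rapamycin 2 had the lowest hippocampus sum of the rapamycin libraries, 115.8 CPM. Male rapamycin 1, 3 and 4, with higher Irs1, had 397.4, 402.7 and 435.4 CPM of hippocampus markers. Female rapamycin 4, also higher in Irs1, had 6553 CPM of oligodendrocyte markers. The part of these cells or regions in the result was not tested.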

How the data were processed

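Cortical RNA was measured by poly(A) RNA-seq in 16 libraries. The deposited values are raw counts of read pairs for each gene, made by the authors per the submitters' processing notes with FastQC 0.11.9, Trimmomatic 0.39, HISAT2 2.2.1 and featureCounts 2.0.3 on GRCm38. Strand was not used, and pairs on several places or genes were left out. The same counts in 1 table per group were not used. Groups, sex and batch came from the labels.

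Counts were analysed in R 4.3.3 with edgeR 4.0.16 (TMM factors, filterByExpr with a minimum count of 10, quasi-likelihood test with robust estimation, terms sex, batch and treatment, or the 4 groups and batch), with Benjamini-Hochberg adjustment over 16553 genes. These held 99.903% of the pairs. CPM values were scaled by TMM, with a prior count of 2 before taking log2. Log2 ratios of counts have a pseudocount of 0.5. For the slope of a library on exon length, deviations of genes from their mean log2 CPM were regressed on log2 length. Start regions are RefSeq's. DESeq2 1.42.0 was an alternative. The other alternatives were RLE factors, no filter, no batch term, a replicate block, batch 1 alone, exon length slope or mitochondrial share as covariates, length offsets, and each library left out. The functions were tested on simulated data. Python 3.11.15, scipy 1.17.1 and matplotlib 3.10.9 made the permutation tests and figures.

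The genes named are the 8 members, the pathway genes that were called, the highest of each list per length, and the 2 genes most like each member. The members and lists were chosen with earlier results of these data known. Ins1, Ins2, Irs4, Sirt1, Gm9747 and the genes sharing the motif pair fall outside this rule and were named after their values were seen.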

Additional observations from a re-analysis of the deposited data

Results flagged for a closer look

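In 5 of 32 sets of 4 libraries (8 genes in 4 groups) 1 library lay far from the other 3 by Dixon's criterion for 4 values, which chance meets in about 1 in 20 groups. Irs1 was high in female vehicle 4 at 16.4 CPM, and so was Irs2 in the same library at 98.5 CPM. Igf1r was high in male vehicle 4 at 115.8 CPM and Insr in female rapamycin 4 at 72.7 CPM. These 4 values come from libraries of batch 2, each the only library of that batch in its group apart from female rapamycin 4, which shares its group with female rapamycin 5. Foxo3 was low in female rapamycin 1 at 69.4 CPM, 1 of the 3 libraries of highest mitochondrial share.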

How the results depend on the processing

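Of the 8 genes 2 were called with both sexes. The count was 2 with DESeq2, RLE factors or no robust estimation, where 18.9%, 13.6% and 13.3% of all genes were called. It was 1 (Irs1) without the filter on low counts, in batch 1 alone or with exon length offsets, with 6.75%, 7.68% and 4.95% called. It was 0 without a batch term (0.876% called), with either covariate (0%) or without the 3 libraries of highest mitochondrial share (0.0058%). It was 1 to 4 when 1 library was left out, with 4.29% to 20.1% of all genes called. The 4 were Irs1, Irs2, Insr and Foxo3, without male rapamycin 3, where 17.3% of all genes were called. In females the count of 0 became 1 with DESeq2, 2 without the filter and 2 in batch 1 alone (with 9.08%, 5.55% and 8.41% of all genes called), and 0 to 2 with 1 library left out. In males it became 1 (Irs1) without the filter, with 1.74% of all genes called. The counts by batch (3) and the 0 of interaction and sex kept within 1.5 times under their alternatives. For batch it was 3 to 4 with 1 library left out, where 25.3% to 36.6% of all genes were called. The 15 pathway genes became 24 with DESeq2 and 5 in batch 1 alone, with 18.9% and 7.68% of all genes called. They became 0 without a batch term, with offsets, with either covariate or without those 3 libraries (0.876%, 4.95%, 0% and 0.0058%). With 1 library left out they became 2 (without female rapamycin 2, 5.28% of all genes) to 20 (without female rapamycin 4, 20.1%). The choices of fitting without robust estimation and of leaving out 3 libraries were made after seeing the data.

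With a replicate block in place of batch, 1 member (Irs1) and 11 pathway genes were called beside 8.02% of all genes, and no other count changed. Same-numbered libraries of a sex deviated together with r from −0.16 to 0.67, not in every pair above 0.1, so the numbers were not taken to pair the libraries. Libraries numbered 4 and 5 are those of batch 2.

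For the 30 genes the text follows across settings, log2 fold changes kept their direction and their side of the threshold in 204 cases under other settings and in 356 with 1 library left out, kept the direction and lost the call in 104 and 117, and gained a call in 2 and 6. Signs turned with the exon length slope as a covariate for Irs2 (0.066), Igf1r (0.023), Grb10 (0.086), Igfbp6 (−0.30), Sos1 (0.0096), Sos2 (0.039), Pik3r2 (−0.044), Pdpk1 (0.014), Gsk3b (0.014), Bad (−0.032) and Ywhah (−0.17). They turned with offsets for Igf1r (0.025), Grb10 (0.096) and Gsk3a (−0.025), with the mitochondrial share for Irs2 (0.072) and Ywhah (−0.053), and without the 3 libraries for Grb10 (0.033), Igfbp6 (−0.079), Pik3r2 (−0.027) and Ywhah (−0.049). Grb10 ran from −0.12 to 0.010 with 1 library left out. The causes were not tested. The log2 ratio of Irs1 to Irs2 was tried with a pseudocount of 1, in batch 1 alone, without those 3 libraries and with each library left out. It stayed below 0 there with exact permutation p under 0.05, from −0.88 in batch 1 alone to −0.56 without male rapamycin 2. The exon length slope, the mitochondrial share and length offsets were not applied to the ratio, which was chosen after seeing the data.

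Irs1 had 62 to 323 counts a library, so counting error was small beside the spread between libraries. Each sex has 4 libraries a diet, 1 of them labelled against its sex-linked genes, and batch 2 has 2 vehicle libraries.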
